A study of Mus musculus with 36 samples.

Results

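A set of 12 libraries of C57BL/6 mouse RNA was compared here, 6 from animals given dimethyloxalylglycine (DMOG) and 6 from animals given phosphate-buffered saline (PBS), out of 36 libraries in the series. They were chosen by their columns in the deposited FPKM table and not by any measured value. The same table holds 6 further libraries from mice given roxadustat, which were used to estimate the spread and to set the compounds side by side, and a second table holds 18 libraries under the same 3 treatments. Beyond strain, treatment and tissue the labels give no genotype, and they state neither the age of the mice, the dose, the route, the time of collection nor whether eyes or animals were pooled. No label says that the libraries came from separate animals, so each p-value reflects only library-to-library spread, which may be technical.

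The labels call these 12 libraries liver, and the data go against that label. Sag, rod arrestin, lay between 2330 and 3683 FPKM over the 12 libraries with a median of 2580, and Nrl, a transcription factor of rods, lay between 782 and 1310 FPKM. Apoa1, a main plasma apolipoprotein made by liver, reached at most 0.424 FPKM. In the table labelled retina Apoa1 lay between 6299 and 12786 FPKM and Sag reached at most 0.473 FPKM. Alb, the albumin gene and another liver marker, read 0 FPKM in every library of that table. In the 12 libraries it reached at most 0.118 FPKM, so it did not mark either table as liver. Why Alb read 0 was not tested, and the naming rests on Sag, Nrl and Apoa1. The libraries described here are therefore called retina-transcriptome libraries (labelled liver), and those of the other table liver-transcriptome libraries (labelled retina).

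DMOG is a cell-permeable analogue of 2-oxoglutarate, the co-substrate of a large family of iron-dependent dioxygenases. Among them are the prolyl hydroxylases encoded by Egln1, Egln2 and Egln3, which use oxygen to mark the alpha subunits of the hypoxia-inducible factors (HIF) for destruction by the von Hippel-Lindau ubiquitin ligase. When these enzymes are slowed, HIF accumulates, pairs with its beta subunit, binds DNA at hypoxia response elements and raises transcription of genes for glycolysis, iron uptake, mitophagy, angiogenesis and its own feedback. Roxadustat is a clinical inhibitor of the same hydroxylases. The retina is one of the most oxygen-hungry tissues of the body, and photoreceptors make much of their energy by aerobic glycolysis even when oxygen is plentiful.

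HIF binds a short core that is written ACGTG or GCGTG and reads CACGT or CACGC on the other strand. The promoters of 3 genes that rose with DMOG are shown because they give the DNA context of the response, Ankrd37, Kdm3a and Pfkl, each as the 250 bases before the annotated transcription start, 5′ to 3′ in the gene's direction, with every match to the 4 words in capitals. Sequences and coordinates are RefSeq's for GRCm38.p6, a later build than the mm9 named in the submitters' processing notes. The windows are chr8:45999851-46000100, chr6:71632918-71633167 and chr10:78009808-78010057, all on the minus strand.
Ankrd37: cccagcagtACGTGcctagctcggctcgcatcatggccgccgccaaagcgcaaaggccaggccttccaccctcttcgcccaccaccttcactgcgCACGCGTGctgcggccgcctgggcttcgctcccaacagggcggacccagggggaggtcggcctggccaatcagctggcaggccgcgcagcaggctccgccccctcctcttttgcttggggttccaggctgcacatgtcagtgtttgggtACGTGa
Kdm3a: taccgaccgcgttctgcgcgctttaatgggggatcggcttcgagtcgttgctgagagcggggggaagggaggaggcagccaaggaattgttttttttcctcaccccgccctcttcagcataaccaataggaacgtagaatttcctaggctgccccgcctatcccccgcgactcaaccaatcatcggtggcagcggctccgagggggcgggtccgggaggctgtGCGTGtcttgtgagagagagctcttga
Pfkl: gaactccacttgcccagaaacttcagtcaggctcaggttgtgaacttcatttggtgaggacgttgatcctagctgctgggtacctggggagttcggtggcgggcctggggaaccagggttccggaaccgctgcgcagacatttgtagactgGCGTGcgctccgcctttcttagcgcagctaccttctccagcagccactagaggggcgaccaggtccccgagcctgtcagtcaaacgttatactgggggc
Ankrd37 held 4 matches, 2 of which overlap within one run of capitals, and Kdm3a and Pfkl held 1 each. The words are common: 38.6% of 32851 RefSeq promoter windows of this length held at least 1. Of 9714 tested genes that could be matched by symbol to a window, 61.3% had a match in at least 1 of their windows, against 38 of the 40 HIF target genes that could be matched, and genes with several annotated starts have more chances. A match describes the letters of a window and does not show binding.

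Among the called genes, those of the lens had the largest differences. Crystallins, the proteins that fill the fiber cells of the lens, and Mip, the lens fiber water channel, were far more abundant in the PBS libraries than in the DMOG libraries. The 29 genes of the lens lists together made up between 0.99% and 10.4% of all FPKM in PBS libraries, with a median of 3.865%, and between 0.0156% and 0.4% in DMOG libraries, with a median of 0.1176%. The groups did not overlap, and PBS libraries 1, 2 and 6 were the highest of all. In a bulk sample, fewer cells of a type and less RNA per cell cannot be told apart.

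Mip lay between 38.75 and 605.1 FPKM in PBS libraries with a median of 237.9, and between 0.1823 and 11.4 FPKM in DMOG libraries with a median of 1.347. Its log2 difference, DMOG minus PBS on the log2(FPKM + 0.5) scale used throughout, was -6.48 ± 0.96 (SE, 6 libraries each, limma adjusted p = 0.00329). Cryaa, the alpha A crystallin chaperone, ranged from 1011 to 10050 FPKM in PBS with a median of 3969 and from 6.385 to 624.7 FPKM in DMOG with a median of 82.65, a log2 difference of -5.38 ± 0.95 (limma adjusted p = 0.00895). No DMOG library reached the lowest PBS library for either gene. Of the 16 crystallin genes, 14 were called lower and none higher at a Benjamini-Hochberg adjusted p under 0.05, and of 13 other lens genes (beaded filament, lens connexins and lens transcription factors among them) 8 were called lower. Over all 13779 genes tested, 0.697% were called lower. The median log2 difference was -5.06 for the crystallins and -3.34 for the other lens genes, against 0.011 for all genes tested. The count of other lens genes was 3 without DMOG replicate 4, 4 without DMOG replicate 6 or PBS replicate 2, and 5 without any of DMOG replicates 2 and 5 and PBS replicates 1 and 6.

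**Figure D1:**
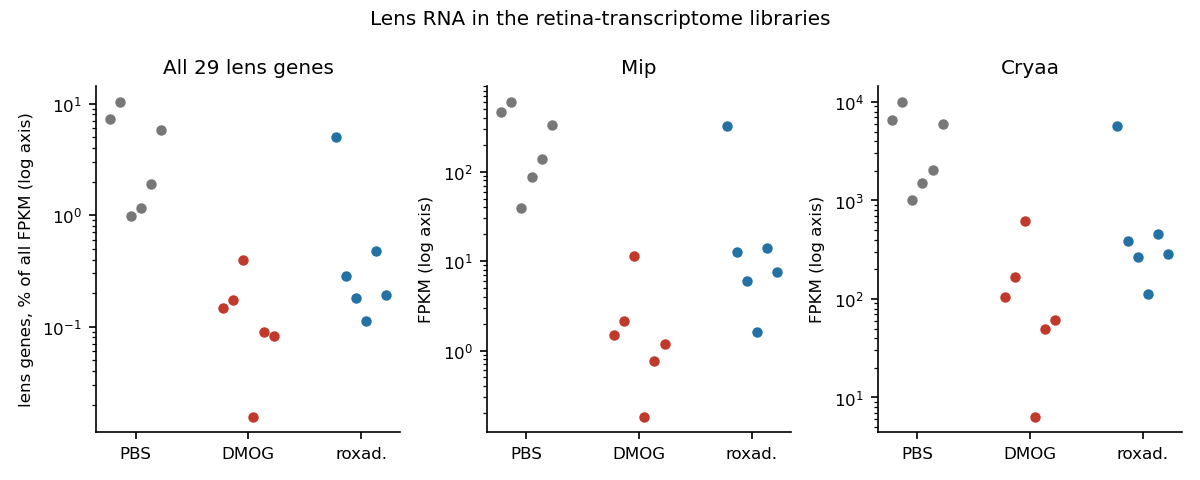
Lens RNA in each of the 18 retina-transcriptome libraries by treatment: the share of all FPKM taken by the 29 lens genes, Mip and Cryaa, each on a log axis, with 1 point per library. The PBS libraries all lie above the DMOG libraries, and 1 roxadustat library, at 4.99%, lies among the PBS libraries.

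To describe the drug groups apart from lens RNA, each library was given a lens index, the mean log2(FPKM + 0.5) of the 29 lens genes. The index ranged from 5.745 to 8.913 in PBS libraries (median 7.155), from 1.051 to 4.751 in DMOG libraries (median 2.966) and from 3.098 to 7.855 with roxadustat. The first principal component of the 18 libraries held 34.1% of the variance, and the absolute correlation of its scores with the index was 0.969, over 18 libraries that include 3 treatments. A second fit took the index as a covariate, so that each gene has a slope on the index within treatments and a DMOG difference at equal index. Since PBS and DMOG did not overlap in the index, the second fit extrapolates, and the standard error of the DMOG difference was 1.65 times as large at the median gene outside the lens lists.

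Of 13779 genes tested, 147 differed between DMOG and PBS (1.07%), with 51 higher and 96 lower in DMOG. Among the 96 lower genes were 22 lens genes and 31 other genes with a called positive slope on the index, and 43 had no called slope. Among the 51 higher genes 1 had a called slope. Over all genes 151 slopes were called (1.1%), all positive. With the lens covariate 1 gene was called (0.00726%), Gm11149, an unnamed gene model, and 455 genes (3.3%) had an unadjusted p under 0.05. The DMOG call of Gm11149 in the first fit was lost without DMOG replicate 2 or 6. The total of 147 also moved with single libraries: it was 48 without DMOG replicate 4, between 61 and 78 without any one of DMOG replicates 2, 5 and 6 and PBS replicates 1, 2 and 6, 276 without DMOG replicate 3 and 420 without PBS replicate 4. Rescaling each library to an equal FPKM total without the lens genes gave 27 higher and 220 lower genes, a share of higher calls of 10.9% in place of 34.7%.

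The 51 higher genes kept their sign with the lens covariate in 51 of 51 cases, their median log2 difference going from 0.39 to 0.31, and 37 had an unadjusted p under 0.05 in that fit, where 1.49% of all genes were higher by that rule. The 74 lower genes outside the lens lists kept their sign in 61 of 74 cases, their median going from -0.71 to -0.21, and 24 had an unadjusted p under 0.05, where 1.81% of all genes were lower by that rule. These genes were selected for their difference in the first fit on the same libraries, so the shares describe them and test nothing.

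**Figure D2:**
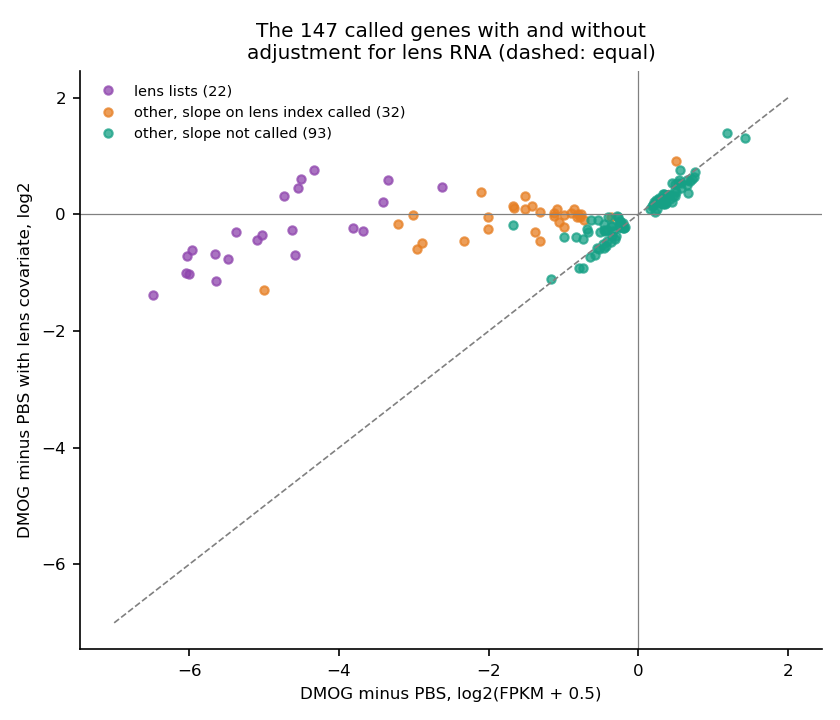
The 147 called genes, with the log2 difference DMOG minus PBS on the horizontal axis and the same difference with the lens covariate on the vertical axis, both on the log2(FPKM + 0.5) scale; colours mark the 22 lens genes, the 32 other genes with a called slope on the lens index and the 93 without. Lens genes and genes with a called slope lie closer to 0 on the vertical axis than on the horizontal one, except Gm11149, though Mip (-1.38) and Nupr1 (-1.29) stay below -1, and most higher genes lie near the dashed line of equal values. The index is the mean of the lens genes and is lower in DMOG, so any positive slope raises the adjusted difference. The shift of these genes was thus built into the fit and tests nothing.

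The 10 named lower genes outside the lens lists with the largest differences were Nupr1, Tmem40, Wnt7b, Gcg, Srd5a2, S100a4, Capn3, Pgam2, Ogn and Vit, and each had a called positive slope on the lens index. Nupr1, a stress-responsive chromatin protein, lay between 38.52 and 240 FPKM in PBS (median 104.3) and between 0.9341 and 22.59 FPKM in DMOG (median 1.655), a log2 difference of -5.00 ± 0.73 (limma adjusted p = 0.00329). Its slope was 0.89 log2 units per unit of index, and its difference at equal index was -1.29 ± 0.50. Gcg, which encodes proglucagon, was between 0.3746 and 8.59 FPKM in PBS (median 5.076) and at most 0.0622 FPKM in DMOG. Gcg passed the filter through its PBS values, and with DMOG values far below the pseudocount its log2 difference of -2.95 depends on that pseudocount. Capn3, the calpain with lens isoforms, went from -2.10 to 0.38 and Vit, an extracellular matrix protein, from -1.68 to 0.14 with the covariate. Wnt7b, Capn3, Pgam2 and Vit lost their calls in 6 to 8 of the 12 fits that each left out 1 library, among them those without DMOG replicate 2, 4 or 6 or PBS replicate 1, 2 or 6.

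HIF target genes were higher with DMOG, by small amounts. Of 50 listed genes 48 passed the filter, and 9 were called higher and none lower, where 0.37% of all genes were called higher. The 9 are Ankrd37, Pfkl, Ddit4, Tfrc, Kdm3a, Aldoa, Narf, Ldha and Gapdh. Of the 48, 40 had a positive log2 difference, 24 were higher and 1 lower at an unadjusted p under 0.05 (6.5% and 7.23% of all genes), and the median was 0.23 against 0.011 for all genes. In 8 of the 48 every DMOG library lay above every PBS library, which held for 0.523% of all genes. With the lens covariate 1 gene in all was called, and no HIF target, glycolysis or histone gene. Of the 48 HIF targets 39 had a positive difference in that fit, and the median was 0.21 against -0.002 for all genes. At an unadjusted p under 0.05 (limma) 10 were higher and 0 lower, where 1.49% and 1.81% of all genes were. Without PBS replicates 1, 2 and 6, those of highest lens index, 3 genes in all were called, 1 of them a HIF target. The median of the HIF targets was then 0.27. Without DMOG replicate 4 the count of HIF targets called higher was 4, and rescaling to an equal total without lens genes gave 6 and a median of 0.15. Ankrd37, Kdm3a, Narf and Pfkl were called in each of the 12 fits that left out 1 library.

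Ankrd37 encodes an ankyrin repeat protein and is a direct HIF target. It lay between 16.22 and 26.17 FPKM in PBS libraries (median 20.95) and between 26.12 and 41.6 FPKM in DMOG libraries (median 34.63). The lowest DMOG library touched the highest PBS library, and the other DMOG libraries lay above all PBS libraries. The difference was 0.69 ± 0.11 log2 units, or 1.62-fold (limma adjusted p = 0.00427), and 0.57 ± 0.18 with the lens covariate. Kdm3a, a histone H3 lysine demethylase that itself uses 2-oxoglutarate and oxygen, lay between 14.96 and 18.49 FPKM in PBS (median 17.97) and between 20.46 and 25.78 FPKM in DMOG (median 23.17), with no overlap, a difference of 0.39 ± 0.06 (1.31-fold, limma adjusted p = 0.00456). Narf, a lamin-binding protein with an iron-only hydrogenase-like domain, lay between 38.56 and 47.95 FPKM in PBS (median 41.3) and between 49.89 and 56.07 FPKM in DMOG (median 53.54), also with no overlap, a difference of 0.33 ± 0.05 (1.26-fold, limma adjusted p = 0.00329). With the lens covariate the log2 differences of Kdm3a and Narf were 0.34 ± 0.10 and 0.35 ± 0.08.

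Tfrc, the transferrin receptor that takes up iron, lay between 40.51 and 45.48 FPKM in PBS (median 42.93) and between 52.76 and 66.25 FPKM in DMOG (median 56.69). Its log2 difference was 0.42 ± 0.08 (limma adjusted p = 0.018), and 0.34 ± 0.14 with the covariate. Ddit4, also called REDD1, which restrains mTOR signalling and responds to glucocorticoids as well as to HIF, lay between 39.41 and 58.1 FPKM in PBS (median 51.7) and between 57.79 and 80.13 FPKM in DMOG (median 68.53). The 2 groups of Ddit4 met at their edges, with a log2 difference of 0.45 ± 0.09 (limma adjusted p = 0.0195) and 0.22 ± 0.13 with the covariate. The call of Tfrc was lost without DMOG replicate 4 or 5, and that of Ddit4 without DMOG replicate 4 or 6 or PBS replicate 6.

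Several glycolytic enzymes were among the higher genes. Of the 22 genes for glycolysis and lactate handling, 5 were called higher (Pfkl, Ldha, Gapdh, Aldoa and Gpi1) and none lower, where 0.37% of all genes were called higher. Of the 22, 16 had a positive difference, and the median was 0.26, or 0.19 with the lens covariate. Pfkl, the liver-type subunit of phosphofructokinase, the committing step of glycolysis, lay between 40.35 and 48.53 FPKM in PBS libraries (median 44.41) and between 53.23 and 74.57 FPKM in DMOG libraries (median 60.78). The groups did not overlap, and the difference was 0.50 ± 0.10 log2 units, or 1.41-fold (limma adjusted p = 0.0139), and 0.38 ± 0.15 with the covariate. Ldha, which reduces pyruvate to lactate, was between 816.8 and 1024 FPKM in PBS (median 941.1) and between 1102 and 1328 FPKM in DMOG (median 1125), again without overlap, a difference of 0.32 ± 0.06 (1.25-fold, limma adjusted p = 0.022). The median of Gpi1, which converts glucose 6-phosphate to fructose 6-phosphate, was 144.3 FPKM in PBS and 185.8 FPKM in DMOG, a difference of 0.35 ± 0.08 (limma adjusted p = 0.032). The 2 remaining enzymes, Aldoa (fructose bisphosphate aldolase) and Gapdh, had differences of 0.34 ± 0.08 and 0.29 ± 0.07 (limma adjusted p = 0.0425 and 0.0386). The count of 5 was 1 without DMOG replicate 4 and 2 or 3 without each other library except DMOG replicate 3 and PBS replicate 4, and 2 after scaling without lens genes. Ldha lost its call without DMOG replicate 4 or PBS replicate 2, Gpi1 in 5 of the 12 fits, Gapdh in 9 and Aldoa in 10.

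Of the 48 HIF targets 39 did not pass the test. Slc16a3, the lactate exporter MCT4, had the largest positive difference of the 48, 0.90 ± 0.24 (limma adjusted p = 0.0893). It lay between 4.277 and 13.74 FPKM in PBS (median 9.26) and between 12.2 and 24.62 FPKM in DMOG (median 15.35), so the groups overlapped. Vegfa, the main angiogenic factor of the retina, lay between 15.99 and 33.42 FPKM in PBS (median 24.23) and between 21.91 and 42.07 FPKM in DMOG (median 28.43), a difference of 0.29 ± 0.17 (limma adjusted p = 0.457). Slc2a1, the glucose transporter GLUT1, differed by 0.02 ± 0.11. Hmox1, haem oxygenase 1, had a difference of -1.28 ± 0.52 (limma adjusted p = 0.283) and was the one HIF target with a called slope on the lens index; with the covariate the difference was 1.14 ± 0.48. Epo, which encodes erythropoietin, stayed under the filter, with values from 0 to 0.395 FPKM in PBS and from 0.0541 to 0.426 FPKM in DMOG. Car9 was under the filter too.

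**Figure D3:**
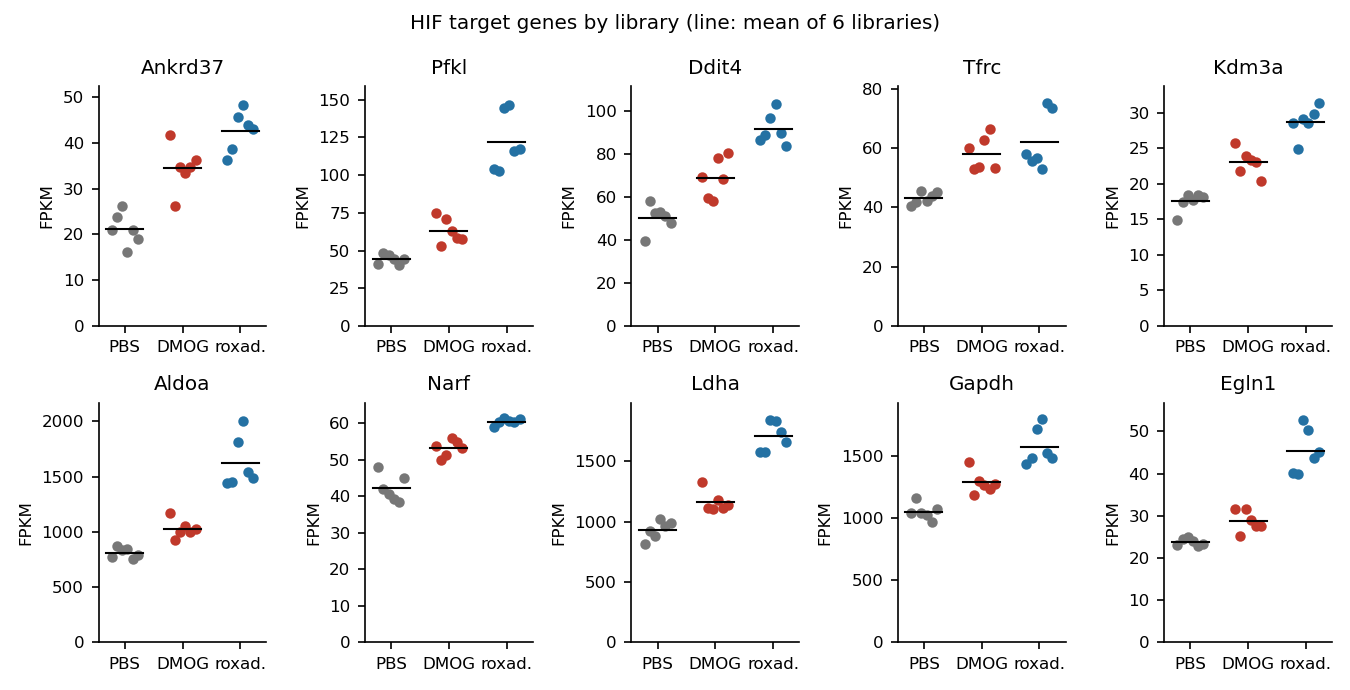
FPKM of the 9 called HIF target genes and of Egln1 in each PBS, DMOG and roxadustat library, on linear axes from 0; points are libraries and lines are means of 6. DMOG libraries lie above PBS libraries with at most a slight contact, as for Ankrd37 and Ddit4.

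The oxygen sensors and HIF subunits themselves differed by small amounts. None of the 9 tested genes of that list was called, where 1.07% of all genes were called either way. A list of 9 genes is short for such a share. All 9 differences were positive, with a median of 0.08 against 0.011 for all genes. At an unadjusted p under 0.05 by limma 2 were higher and none lower, where 6.5% and 7.23% of all genes were. Egln1, whose product PHD2 is the main oxygen sensor and which HIF induces as feedback, lay between 22.86 and 24.96 FPKM in PBS libraries (median 23.6) and between 25.29 and 31.64 FPKM in DMOG libraries (median 28.28). Every DMOG library lay above every PBS library, and the difference was 0.27 ± 0.07 log2 units (limma adjusted p = 0.066), or 0.16 ± 0.11 with the lens covariate. Differences were 0.14 ± 0.05 for Egln2, 0.17 ± 0.14 for Egln3 (PHD3) and 0.10 ± 0.05 for Hif1an, the asparaginyl hydroxylase FIH (limma adjusted p = 0.261, 0.591 and 0.385). For the alpha subunits Hif1a and Epas1 they were 0.04 ± 0.05 and 0.01 ± 0.11 (limma adjusted p = 0.786 and 0.979). Transcript levels do not measure HIF protein, whose amount is set after translation. Among other 2-oxoglutarate dioxygenases, 1 of 18 demethylase genes was called, Kdm3a, where 1.07% of all genes were called either way. Of the 18 differences 17 were positive, with a median of 0.09. At an unadjusted p under 0.05 by limma 5 were higher and none lower, where 6.5% and 7.23% of all genes were. Of the 5 tested collagen hydroxylases (P4ha1, P4ha2, Plod1, Plod2 and Plod3) none was called, and 5 genes are few for such a share of calls.

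The remaining named higher genes were Grhpr, Cox4i2, Serpine3 and histones. Grhpr, glyoxylate and hydroxypyruvate reductase, lay between 7.886 and 12.64 FPKM in PBS libraries (median 10.82) and between 12.23 and 18.33 FPKM in DMOG libraries (median 17.16), with overlap by the lowest DMOG library. Its difference was 0.64 ± 0.12 log2 units, or 1.56-fold (limma adjusted p = 0.0139). Cox4i2, the isoform of cytochrome oxidase subunit 4 that is switched on in low oxygen, lay between 14.67 and 22.81 FPKM in PBS (median 18.49) and between 25.8 and 35.18 FPKM in DMOG (median 29.53). The groups did not overlap, with a difference of 0.67 ± 0.16 (limma adjusted p = 0.0429) and 0.37 ± 0.24 with the covariate. Serpine3, a serpin family member, had a difference of 1.18 ± 0.28 (limma adjusted p = 0.0482) with values from 0.1207 to 2.104 FPKM in PBS and from 1.803 to 5.163 FPKM in DMOG. The calls of Cox4i2 and Serpine3 were lost in 9 and 8 of the 12 fits that each left out 1 library, including all but DMOG replicate 3 among the DMOG libraries and PBS replicates 1 and 6.

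Histone genes were the other group that stood higher with DMOG. Of 16 listed replication-dependent histone genes that passed the filter, 6 were called higher and none lower, where 0.37% of all genes were called higher, and all 16 differences were positive, with a median of 0.47, or 0.35 with the lens covariate. Hist1h1e, a linker histone, lay between 145.8 and 216.2 FPKM in PBS libraries (median 191.9) and between 247.7 and 318.4 FPKM in DMOG libraries (median 313). The groups did not overlap, and the difference was 0.65 ± 0.09 log2 units, or 1.57-fold (limma adjusted p = 0.00329). Hist1h1c, another linker histone, lay between 240.8 and 376 FPKM in PBS (median 306.2) and between 401.2 and 453 FPKM in DMOG (median 428), again without overlap, a difference of 0.48 ± 0.09 (limma adjusted p = 0.00895). Among all 55 genes of the Hist1, Hist2 and Hist3 clusters that were tested, a set taken after the values were seen, 12 were called higher and none lower, 52 differences were positive and the median was 0.47. Of these 12, 5 or 6 were still called without any one of DMOG replicates 2, 4, 5 and 6 and PBS replicates 1, 2 and 3. Hist1h4j, Hist1h2be, Hist2h4, Hist2h2ac and Hist1h1d, named by their size, had differences of 0.76, 0.57, 0.57, 0.54 and 0.53. Hist1h4j, Hist1h1e and Hist1h1c were called in each fit that left out 1 library, and the calls of Hist1h2be, Hist2h4, Hist2h2ac and Hist1h1d were lost in 6 or 7 of the 12, among them those without DMOG replicate 4, 5 or 6 or PBS replicate 2 or 3.

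Most transcripts of these genes carry no poly(A) tail, and the libraries were made from total RNA depleted of ribosomal RNA. Near-identical histone copies share reads, so single genes of the clusters are uncertain. Other measures moved with the histones. Rpph1 and Rmrp, the RNA parts of 2 ribonucleoprotein enzymes, together took between 12.2% and 17.8% of all FPKM in PBS libraries and between 15.5% and 22.5% in DMOG libraries. Relative depth, read from the smallest steps of low FPKM values in 139 genes, was between 0.8814 and 0.9224 in PBS and between 0.9249 and 1.158 in DMOG. The part of either in the histone difference was not tested. None of 21 cell division and progenitor genes was called, where 1.07% of all genes were called either way. Their median was -0.11, or 0.16 with the lens covariate. Of the 21 differences 6 were positive, or 18 with the covariate, so the sign depends on the fit. The histone list's count of 6 called genes was 3 without any one of DMOG replicates 2, 4, 5 and 6 and PBS replicates 1, 2 and 3.

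**Figure D4:**
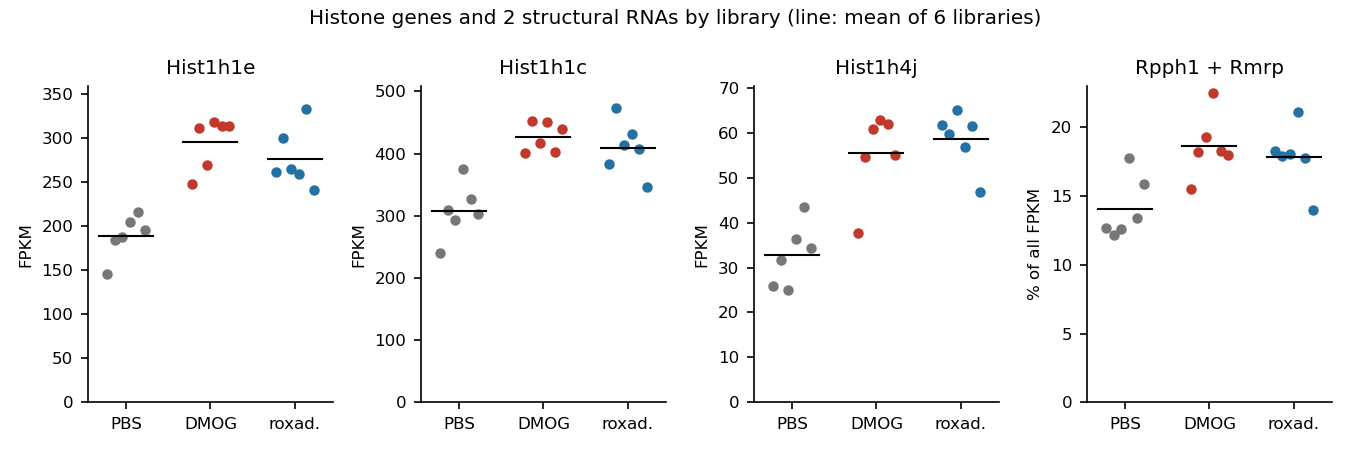
FPKM of Hist1h1e, Hist1h1c and Hist1h4j and the share of all FPKM taken by Rpph1 and Rmrp, in each PBS, DMOG and roxadustat library; points are libraries and lines are means of 6. The DMOG and roxadustat libraries lie mostly above the PBS libraries in all 4 panels.

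Some lower genes had no called slope on the lens index. The following were picked after their values were seen, from the 8 with the smallest p in the covariate fit. Dock8, a guanine nucleotide exchange factor best known in leukocytes, lay between 0.7641 and 1.092 FPKM in PBS libraries and between 0.4004 and 0.5319 FPKM in DMOG libraries, a log2 difference of -0.59 ± 0.08 (limma adjusted p = 0.00329) that was -0.70 ± 0.13 with the covariate. Asap3, an Arf GTPase-activating protein, lay between 1.844 and 2.214 FPKM in PBS and between 1.185 and 1.415 FPKM in DMOG, a difference of -0.46 ± 0.07 (limma adjusted p = 0.00329), or -0.57 ± 0.10 with the covariate. Neither gene's groups overlapped. The Dock8 values lie near the pseudocount of 0.5 FPKM, so the size of its log2 difference depends on that pseudocount. The differences of Myo1g and Racgap1 were -0.52 ± 0.08 and -0.32 ± 0.06 (limma adjusted p = 0.00336 and 0.0183), the latter lost without DMOG replicate 2 or 4.

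Markers of retinal cell types were read next. No gene of the rod (17 tested), cone (12), bipolar (15), amacrine and horizontal (14), ganglion (15), microglial (17), endothelial (16) or pericyte (7) lists was called, where 1.07% of all genes were called either way. Their medians ran from -0.14 for ganglion cells to 0.16 for bipolar cells. Of the 15 bipolar genes 7 were higher and none lower at an unadjusted p under 0.05, where 6.5% of all genes were higher by that rule; Isl1 and Vsx1 had differences of 0.21 ± 0.06 and 0.27 ± 0.07 (limma adjusted p = 0.0768 and 0.0779), and the list's median was 0.00 with the lens covariate. Of the 17 rod genes 8 had a positive and 9 a negative difference, with a median of -0.01. At an unadjusted p under 0.05, 1 was higher and 1 lower, where 6.5% and 7.23% of all genes were. Among those with a negative difference were Gnat1, rod transducin (-0.63 ± 0.34, limma adjusted p = 0.421), and Pde6a, a rod phosphodiesterase subunit (-0.58 ± 0.18, limma adjusted p = 0.145). Other rod genes had higher means in DMOG than in PBS. For Nrl the means were 1140 and 1040 FPKM, for Nr2e3 922 and 824 FPKM, and for Rom1 1410 and 1310 FPKM.

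Of 16 Müller glia genes 10 had a negative difference, with a median of -0.06. At an unadjusted p under 0.05, 1 was higher and 3 lower, where 6.5% and 7.23% of all genes were. The 3 were Clu, or clusterin (-0.74 ± 0.20, limma adjusted p = 0.0874), Vim, or vimentin (-0.48 ± 0.14, limma adjusted p = 0.124), and Dkk3 (-0.28 ± 0.11, limma adjusted p = 0.261), none of them called, and with the lens covariate the differences were -0.17, 0.01 and -0.05. The 1 called gene of the list was Crym, a thyroid hormone-binding protein also known as mu-crystallin, with a difference of 0.37 ± 0.08 (limma adjusted p = 0.0408). Its call was lost in 8 of the 12 fits that left out 1 library (DMOG replicates 2 to 6 and PBS replicates 1 to 3). Over all genes 0.37% were called higher. Of the gliosis list, 12 of 13 differences were negative with a median of -0.27, and none was called.

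Markers of tissues next to the retina were also read. The summed level of 18 listed genes of the retinal pigment epithelium lay between 145.2 and 422.2 FPKM in PBS libraries (median 297.7) and between 117.9 and 311.5 FPKM in DMOG libraries (median 221.9). Of the 16 that passed the filter none was called, where 1.07% of all genes were called either way. Of these 16 differences 15 were negative, and the median was -0.32, or -0.29 with the lens covariate. Of 10 tested genes of cornea, iris and ciliary body none was called and all differences were negative. Their median was -0.29, or -0.38 with the covariate. At an unadjusted p under 0.05 by limma, 5 were lower and none higher, where 7.23% of all genes were lower. With the covariate 3 were lower by that rule, where 1.81% of all genes were. Krt12, the defining keratin of cornea, was under 1 FPKM in every library. Acta2, smooth muscle actin, had a called slope on the lens index and a difference of -1.21 ± 0.30 (limma adjusted p = 0.0557) that was 0.03 ± 0.33 with the covariate. Of red cell genes Hbb-b1, a beta globin, lay between 9.403 and 16.96 FPKM in PBS and between 20.71 and 32.83 FPKM in DMOG, a difference of 0.90 ± 0.22 (limma adjusted p = 0.0527). The part of these tissues in the results was not tested.

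Other lists held few calls. No gene of the lists for oxidative phosphorylation (30 tested), immediate early genes (15), integrated stress and protein folding (17), cholesterol synthesis (21), the circadian clock (16), synapse (18) or angiogenic factors and receptors (25) was called. Over all genes 1.07% were called either way. Of 12 glucocorticoid response genes Ddit4 alone was called. Cholesterol synthesis genes had 19 of 21 negative differences, with a median of -0.11, or -0.01 with the covariate.

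The HIF response to DMOG was next set beside that to roxadustat in the same table. The labels give no dose or time for either compound, and both differences use the same PBS libraries, so the values stand side by side. The median log2 difference of the 48 HIF targets was 0.23 with DMOG and 0.54 with roxadustat, with 9 and 31 called higher (0.37% and 1.69% of all genes). The direct contrast of roxadustat and DMOG means, for which the PBS libraries add only to the estimate of the spread, called 22 of the 48 higher with roxadustat and none lower, where 0.98% of all genes were called higher, and 45 of the 48 differences were positive. Of 22 glycolysis and lactate genes 13 were called higher with roxadustat than with DMOG. Pfkl was between 102.5 and 146.2 FPKM with roxadustat, above every DMOG library, a difference of 0.94 log2 units (limma adjusted p = 1.26e-05). Slc16a3 differed by 1.87 (limma adjusted p = 0.000202), Grhpr by 1.26 (limma adjusted p = 8.51e-06) and Egln1 by 0.64 (limma adjusted p = 1.94e-05).

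Not every gene separated the compounds. Ankrd37 differed between roxadustat and DMOG by 0.31 ± 0.11 (limma adjusted p = 0.252) and Tfrc by 0.08 ± 0.08 (limma adjusted p = 0.784). None of the 55 histone cluster genes differed between the compounds at an adjusted p under 0.05, where 1.31% of all genes did. Few or no calls would be expected among 55 genes at that share. The median histone difference of the 16 listed genes from PBS was 0.47 with DMOG and 0.53 with roxadustat. A p that misses the threshold does not show that the compounds act alike. Rasgef1b, an exchange factor for Rap GTPases, was higher with DMOG: it lay between 15.98 and 17.43 FPKM with DMOG, between 13.73 and 14.83 FPKM with PBS and between 13.26 and 14.32 FPKM with roxadustat, and roxadustat minus DMOG was -0.27 ± 0.04 (limma adjusted p = 0.000202). It was chosen after its values were seen. The roxadustat library with 4.99% lens RNA had a Pfkl level of 104.3 FPKM, above all 12 PBS and DMOG libraries.

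**Figure D5:**
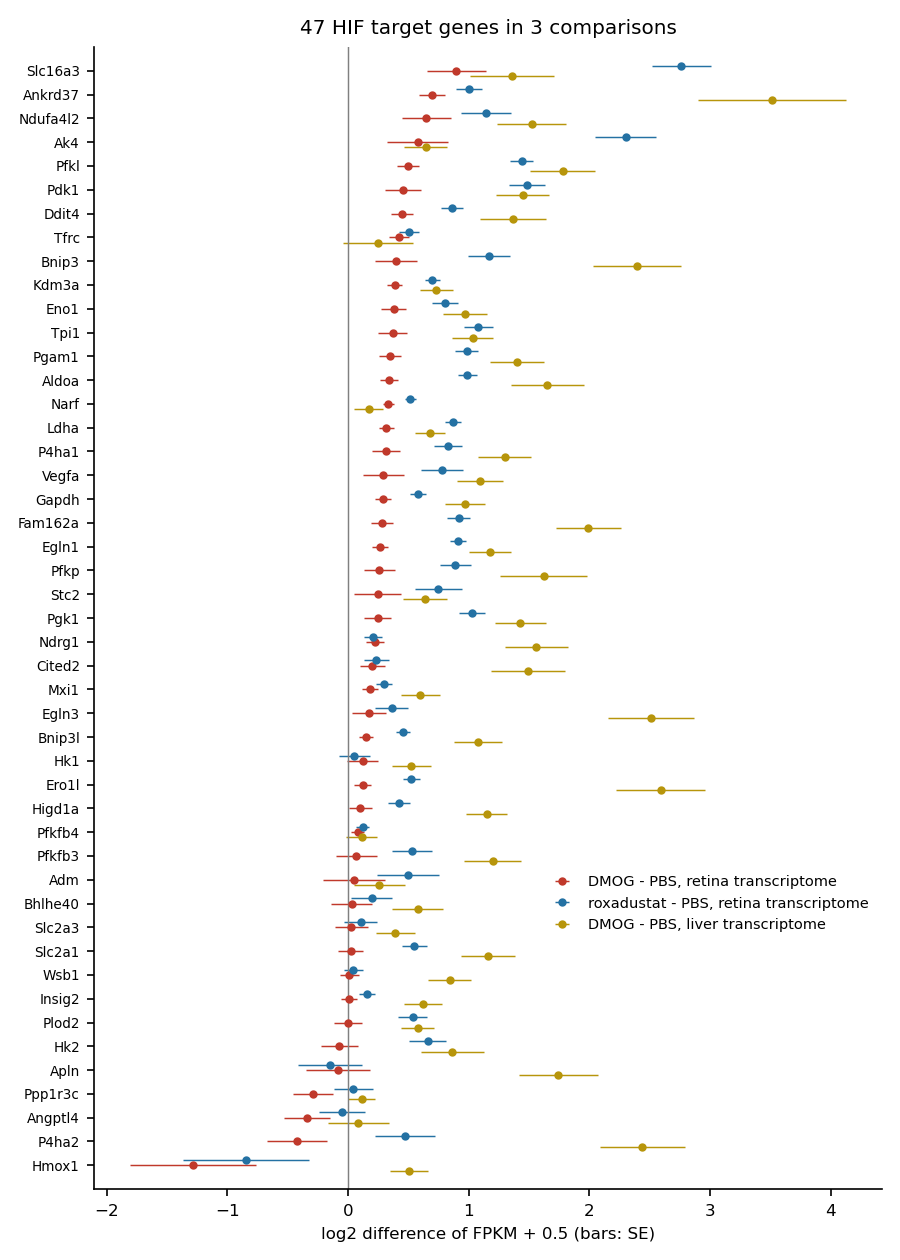
Log2 differences with standard errors of 47 of the 48 HIF target genes in 3 comparisons: DMOG minus PBS and roxadustat minus PBS in the retina-transcriptome libraries, which share PBS libraries, and DMOG minus PBS in the liver-transcriptome libraries. Most DMOG values of the retina transcriptome lie between 0 and 0.50, left of the other 2 series.

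In the liver-transcriptome libraries DMOG moved the same genes further. The median log2 difference of the 48 HIF targets there was 1.12, with 40 called higher where 8.26% of all genes were, against 0.23 and 9 in the retina transcriptome. The test of the difference between the 2 DMOG responses called 31 of the 48 smaller in the retina transcriptome and none larger, where 6.97% of 11101 genes tested in both tables were called smaller, 8.91% larger and 15.9% either. Rescaling to equal totals moved that comparison's share of genes called larger in the retina transcriptome from 56.1% to 76.8%. Ankrd37 differed by 0.69 in the retina transcriptome and 3.52 in the liver transcriptome and Egln3 by 0.17 and 2.51. Narf (0.33 and 0.17) and Tfrc (0.42 and 0.25) were not called different between the tables (limma adjusted p = 0.419 and 0.743). The 16 listed histone genes had a median of 0.20 with none called in the liver transcriptome. The 2 tables were normalised separately, so levels are not compared across them.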

How the data were processed

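Total RNA was extracted with RNeasy and made into stranded libraries depleted of ribosomal RNA, per the labels' protocols. Per the submitters' processing notes, bcl2fastq 1.8.3, TopHat2 (version 2) and Cuffdiff 2.2.1 were used with the mm9 build; the deposited values are FPKM per gene, already normalised by the authors, so read depth is unknown beyond the relative steps of low values. Over the 18 libraries of the table, values were taken to log2(FPKM + 0.5), and the 13779 of 22558 genes that averaged 0.5 FPKM or more were tested with limma 3.58.1 in R 4.3.3 (1 mean per treatment, mean trend, 15 residual degrees of freedom, Benjamini-Hochberg adjustment, called under 0.05, two-sided). A second fit added the lens index (14 residual degrees of freedom). The script was tested on simulated data. FPKM totals ran from 542785 to 617853 in the 12 libraries.

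The members and the 34 gene lists were chosen with earlier results of these data known. Named genes are the 10 highest and 10 lowest called log2 differences at 1 FPKM or more with all 6 DMOG libraries on one side of the PBS mean, leaving out lens, sex-linked and unnamed genes, plus the hydroxylases, HIF subunits, Vegfa and Epo and the list members with the smallest adjusted p; the other called HIF targets are named as the rest of their count. A few list members are not reported here by name. The mitochondrial list had no gene in the table, 3 of 12 skeletal muscle and 3 of 14 liver genes passed the filter, and none of these was called. Alternatives were pseudocounts, filters, scalings, covariates, a replicate block and left-out libraries. By Xist and Y-linked genes, 3 PBS and 2 DMOG libraries were female.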

Additional observations from a re-analysis of the deposited data

Results flagged for a closer look

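In 11 of 54 sets of 6 libraries (27 named genes in each of 2 groups), 1 library stood apart from the other 5 by Dixon's test; chance gives about 1 in 20. DMOG replicate 3, the DMOG library of highest lens index, was the highest for Nupr1 (22.6 FPKM against 3.2 for the next), Tmem40 (1.24 against 0.374), Wnt7b (6.31 against 0.485), Srd5a2 (2.09 against 0.142), Capn3 (1.08 against 0.535) and Vit (10.9 against 4.07). DMOG replicate 1 was the lowest for Hist1h4j (37.7 FPKM against 54.6) and Hist2h4 (141 against 192), DMOG replicate 2 for Grhpr (12.2 against 16.2), DMOG replicate 5 for Hif1an (16.1 against 17.8) and DMOG replicate 4 for Hif1a (279 against 297).

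The DMOG difference itself differed between the retina-transcriptome and liver-transcriptome libraries for 12 of the 22 named genes tested in both. Retina minus liver, in log2 units, it was -2.82 for Ankrd37, -0.91 for Egln1, -2.33 for Egln3 and -0.80 for Vegfa, all HIF targets, 0.50 for Hist1h1e and 0.84 for Grhpr. For genes with a called slope on the lens index it was -5.16 for Nupr1, -3.40 for Tmem40, -2.68 for S100a4, -1.65 for Capn3, -2.28 for Pgam2 and -1.74 for Ogn. Lens RNA moves with the treatment in the retina-transcriptome libraries, and its part in these differences was not tested.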

How the results depend on the processing

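The count of 147 genes called between DMOG and PBS was 1 with the lens covariate, 3 without the 3 PBS libraries of highest lens index and 1 with lens and sex covariates together (both chosen after seeing the data), 94 in the 12 PBS and DMOG libraries alone, 247 after scaling to an equal total without lens genes, and 248 with a depth covariate. Leaving out 1 library gave 48 to 420. The replicate block gave 138 genes; same-numbered libraries deviated together in 2 of 6 pairs and 1 of 6 correlated best with its own number, so the numbers were not taken to pair them. The 181 genes called between roxadustat and DMOG were 128 to 214 without single libraries and 175 with the replicate block. The 1763 genes whose DMOG response differed between the tables were 976 with a filter of 5 FPKM, 2097 with the replicate block, and 1413 to 3202 without single libraries, the last without DMOG replicate 5 of the liver transcriptome. Causes were not tested.

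HIF targets called higher were 0 of 48 with the lens covariate, where 10 were higher at an unadjusted p under 0.05 by limma (1.49% of all genes). They were 1 without the 3 PBS libraries, where the median was 0.27. Histones called were 0 in both. Of 20 called named genes 10 lost the call without at least 1 library. Signs reversed for Capn3 (0.381, and 0.308 with sex added) and Vit (0.139 and 0.092) with the lens covariate, for Hif1a after scaling without lens genes (-0.049), and for Epas1, which was near 0: -0.007 at equal totals, -0.069 without lens genes, -0.007 when Rpph1 and Rmrp were also left out, -0.144 and -0.166 with the covariates, and between -0.058 and 0.075 without single libraries.

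FPKM without counts give no counting error per gene. PBS and DMOG libraries did not overlap in lens index or in relative depth, so treatment and these measures cannot be told apart by adjustment alone.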
